A study of Mus musculus with 24 samples.

Results

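Splicing of pre-mRNA is steered by RNA-binding proteins that mark exons, hide them or hold the spliceosome at a splice site, and 62 genes of such proteins were followed here in the mouse nucleus accumbens (NAc), a reward area of the ventral striatum. The genes were taken by symbol as protein-coding members of 10 families: Srsf, Hnrnp, Rbfox, Celf, Nova, Ptbp, Mbnl, Elavl, Sf3a and Sf3b (counted as 1 family, Sf3), and U2af. Of 64 genes with such a symbol, 62 had a mean of at least 10 read pairs per library over the 24 libraries, and Mbnl3 (mean 9.17) and U2af1l4 (mean 9.88) did not. The files listed 52636 genes, of which 15007 were protein-coding with a mean count of at least 10. All 62 passed the expression filter of every comparison.

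The tissue came from C57BL/6 mice (C57BL/6J in the study's methods) that were 50 days old, with bilateral NAc punches of 6 animals in each of 4 groups: control (Con) females, Con males, and females and males exposed to maternal separation with unpredictable stress of the dam, abbreviated MSUS, from postnatal day 1 to 14. Total RNA was depleted of ribosomal RNA before sequencing, so unspliced nuclear RNA was also read. The labels name no transgene, drug or other allele in any group. The labels do not give litters, so animals of a group may share one, and the p-values measure the spread between these animals. In bulk tissue, fewer cells of a type and less RNA per cell cannot be told apart.

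SR proteins (Srsf genes) bind exonic enhancers and recruit the splicing machinery, while many heterogeneous nuclear ribonucleoproteins (hnRNPs) bind silencers and oppose them. Rbfox, Celf, Nova, Ptbp, Mbnl and Elavl proteins read short motifs in introns and exons and give neurons and muscle their own splice patterns, and in neurons Ptbp2 takes over from Ptbp1 as they mature. U2af recognizes the 3′ splice site and hands over to the U2 small nuclear ribonucleoprotein, of which the Sf3a and Sf3b complexes are parts. Many of these genes also control their own mRNA through alternative exons that lead to decay, which a count per gene cannot resolve.

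Libraries held 39923666 to 70575745 read pairs counted on the sense strand of a gene. The share of uniquely mapped pairs that fell in no annotated exon of their own strand (the no-exon share) did not overlap between the female groups: its lowest, median and highest values were 31.0%, 32.7% and 34.8% in Con females and 36.3%, 39.6% and 43.9% in MSUS females. In males these were 34.7%, 38.4% and 40.6% (Con) and 32.2%, 36.4% and 44.7% (MSUS). No library went against its labelled sex. Markers of striatal projection neurons, which define the NAc, were read in every group, with a summed level of 2567 to 6611 CPM, counts scaled to a fixed library total, and markers of cortical excitatory neurons, which the NAc lacks, summed to 162 to 1923 CPM.

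The stretch before the transcription start was read for 54 of the 62 genes from RefSeq (GRCm38.p6), and Celf4, Hnrnpll, Hnrnpul2, Ptbp3, Rbfox2, Sf3b4, Sf3b5 and U2af2 were not matched. Below are the 250 bases before the start of 4 genes that passed the test in females, 2 that were higher and 2 that were lower in MSUS, chosen by the smallest p among those with no annotated exon in the window. Each runs 5′ to 3′ on the strand of the gene: Hnrnph1 chr11:50376740-50376989 (plus strand), Srsf6 chr2:162931258-162931507 (plus), Nova2 chr7:18925638-18925887 (plus) and Hnrnpab chr11:51606882-51607131 (minus). Capitals mark matches, on either strand, to the CCAAT box (its own name gives the letters) or to the GC box, written GGGCGG, which Sp and Klf factors bind.
Hnrnph1: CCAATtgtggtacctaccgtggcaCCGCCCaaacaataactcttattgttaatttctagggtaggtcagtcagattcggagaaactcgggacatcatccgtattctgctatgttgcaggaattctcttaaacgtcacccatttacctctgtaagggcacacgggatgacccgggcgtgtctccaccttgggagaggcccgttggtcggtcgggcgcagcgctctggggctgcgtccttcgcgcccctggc
Srsf6: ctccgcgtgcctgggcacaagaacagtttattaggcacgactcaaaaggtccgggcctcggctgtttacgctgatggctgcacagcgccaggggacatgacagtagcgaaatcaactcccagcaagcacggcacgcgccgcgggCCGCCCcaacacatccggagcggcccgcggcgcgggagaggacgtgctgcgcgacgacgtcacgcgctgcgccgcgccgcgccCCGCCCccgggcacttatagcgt
Nova2: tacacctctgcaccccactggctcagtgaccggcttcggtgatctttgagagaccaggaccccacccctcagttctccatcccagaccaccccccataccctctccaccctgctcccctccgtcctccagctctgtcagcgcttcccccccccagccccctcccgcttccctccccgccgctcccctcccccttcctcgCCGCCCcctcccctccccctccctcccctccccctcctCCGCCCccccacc
Hnrnpab: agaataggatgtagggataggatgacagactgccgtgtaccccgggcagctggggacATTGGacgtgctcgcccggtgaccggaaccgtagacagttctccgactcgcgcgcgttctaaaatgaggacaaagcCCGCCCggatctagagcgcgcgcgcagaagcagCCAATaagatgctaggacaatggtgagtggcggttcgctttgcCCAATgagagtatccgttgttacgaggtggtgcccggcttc
Hnrnpab held 3 CCAAT boxes and 1 GC box, Nova2 held 2 GC boxes in a C-rich stretch, Srsf6 held 2 GC boxes, and Hnrnph1 held 1 of each, both at the far end. GC boxes were found in 35 of the 54 promoters (64.8%) against 32.7% of all 32851 promoters in the table, and CCAAT boxes in 25 (46.3%) against 33.8%. The ETS letters CCGGAAG were found in 12 (22.2%, with 4 Srsf and 6 Sf3 genes among them) against 6.91% of all. Rarer letters were those of YY1 (GCCATNTT; 4 genes, 7.41% against 3.91%), NRF1 (GCGCATGCG; Srsf7 only, 1.85% against 1.45%) and CRE (TGACGTCA; Celf6 only, 1.85% against 1.55%), while TATAAA stood in 8 (14.8% against 12.4%). The median promoter of these genes had 61.6% GC and 19 CpG, against 52.4% and 6 for all promoters. GC boxes stood before 11 of the 13 genes that rose in MSUS females and 4 of the 6 that fell, and CCAAT boxes before 5 of 13 and 5 of 6. For 17 of the 54 genes the RefSeq start lay over 100 bases from the start of the GENCODE gene model, among them Rbfox3, one of the 5 lower genes with a CCAAT box, at 150556 bases. These are matches of letters, and no binding was measured.

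Levels were compared between genes as RPKM, counts scaled for library size and for the length of the merged exons. The most abundant gene was Rbfox1, a neuronal splicing factor, at a mean of 78.3 RPKM (lowest to highest animal 63.8 to 92.0). Next came Celf5 at 63.9 RPKM, Celf4 at 63.6 RPKM, Hnrnpa1 at 54.0 RPKM and Srsf5 at 51.5 RPKM. Animals overlapped between Celf5 (54.1 to 70.0 RPKM) and Celf4 (58.4 to 68.8 RPKM), so their order is not resolved. Hnrnpa1 has processed pseudogenes elsewhere in the genome, and pairs that map to more than 1 place were not counted, so its level is uncertain. At the low end stood Sf3b5, a small subunit of SF3b, at 3.78 RPKM and Ptbp3 at 4.19 RPKM.

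The levels of paralogs differed within families. Ptbp2 (nPTB), the neuronal form, stood at 11.4 RPKM (lowest to highest animal 9.92 to 13.2) and Ptbp1 at 6.69 RPKM (lowest to highest animal 5.61 to 7.63), with no overlap. Nova2 stood at 26.6 RPKM (lowest to highest animal 23.9 to 29.5) and Nova1 at 8.29 RPKM (lowest to highest animal 5.80 to 10.5), also without overlap. Among the Elavl genes the neuronal Elavl3 (HuC) was highest, at 29.1 RPKM (lowest to highest animal 27.1 to 33), and the ubiquitous Elavl1 (HuR) was at 12.4 RPKM (lowest to highest animal 11.8 to 12.9), above the means of Elavl4 and Elavl2, which are also neuronal, at 7.90 and 6.79 RPKM. Together the 62 genes took 0.953% to 1.04% of the scaled library total that CPM uses.

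**Figure D1:**
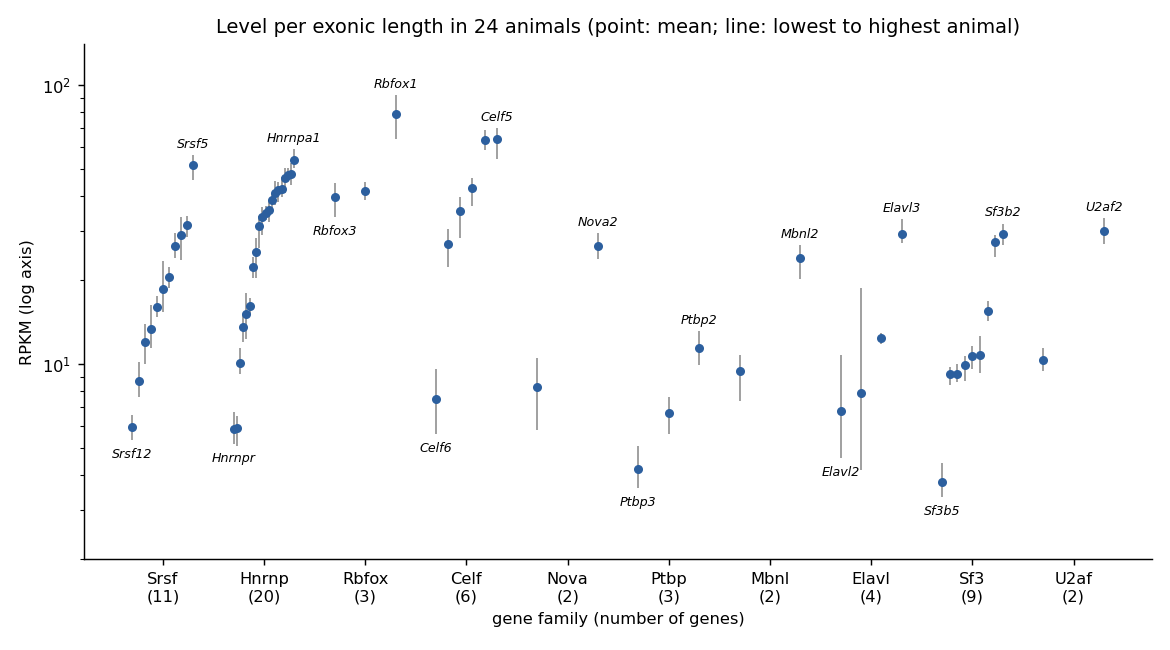
Level of the 62 genes by family in RPKM on a log axis; points are means over 24 animals and lines run from the lowest to the highest animal. Rbfox1, Celf5 and Celf4 stood at the top, at means of 78.3, 63.9 and 63.6 RPKM, and Elavl4 and Elavl2 had the longest lines for their level.

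Most of these genes varied little between animals of a group. The mean of the 4 within-group coefficients of variation, on normalized counts (counts divided by a size factor for depth), ran from 2.58% for Hnrnpk to 11.8% for Celf6 in 60 of the 62 genes. The other two were Elavl4 (HuD), at 46.1%, and Elavl2 (HuB), at 28.6%. Elavl4 had lowest, median and highest normalized counts of 1337, 2180 and 5364 in Con females and 1196, 1647 and 3126 in MSUS females, and of 1186, 1928 and 3636 in Con males and 1769, 2051 and 5004 in MSUS males. In each group 1 animal stood well above the others, and the highest of the 24 was 4.52 times the lowest.

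The comparison of MSUS with Con females asked how early-life stress had changed the female NAc. Of the 62 genes, 19 passed the test (edgeR quasi-likelihood test, adjusted p under 0.10), against 25.1% of all 20571 genes tested: 13 were higher in MSUS (background 13.1% of all genes) and 6 were lower (background 11.9%). In share, 30.6% of the 62 genes passed. The rise was in the SR proteins, of which 8 of 11 were higher and none lower, and in 3 hnRNPs, Mbnl1 and Celf6. The 6 lower genes were Nova2, Hnrnpab, Hnrnpa0, Elavl3, Rbfox3 and Sf3b2. Changes were small: the log2 fold changes of the called genes ran from -0.14 (Nova2) to 0.26 (Srsf7), and the median over the 62 genes was 0.018, against -0.0027 over all genes tested. MSUS and Con females did not overlap in normalized counts for 7 of the 62 genes, against 7.21% of all genes tested: Srsf11, Srsf7, Srsf1, Hnrnph1 and Hnrnph3 were higher in every MSUS female, and Nova2 and Elavl3 lower. With 1 MSUS female left out in turn, the count of 19 fell to 11 without female 2, 3 or 5, where 16.2%, 15% and 18.1% of all genes were called. With the no-exon share as a covariate, 0 of the 62 genes were called by edgeR (7 at unadjusted p under 0.05), as were 0 of all genes (lowest adjusted p = 0.760). Stress and this share cannot be told apart in females.

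**Figure D2:**
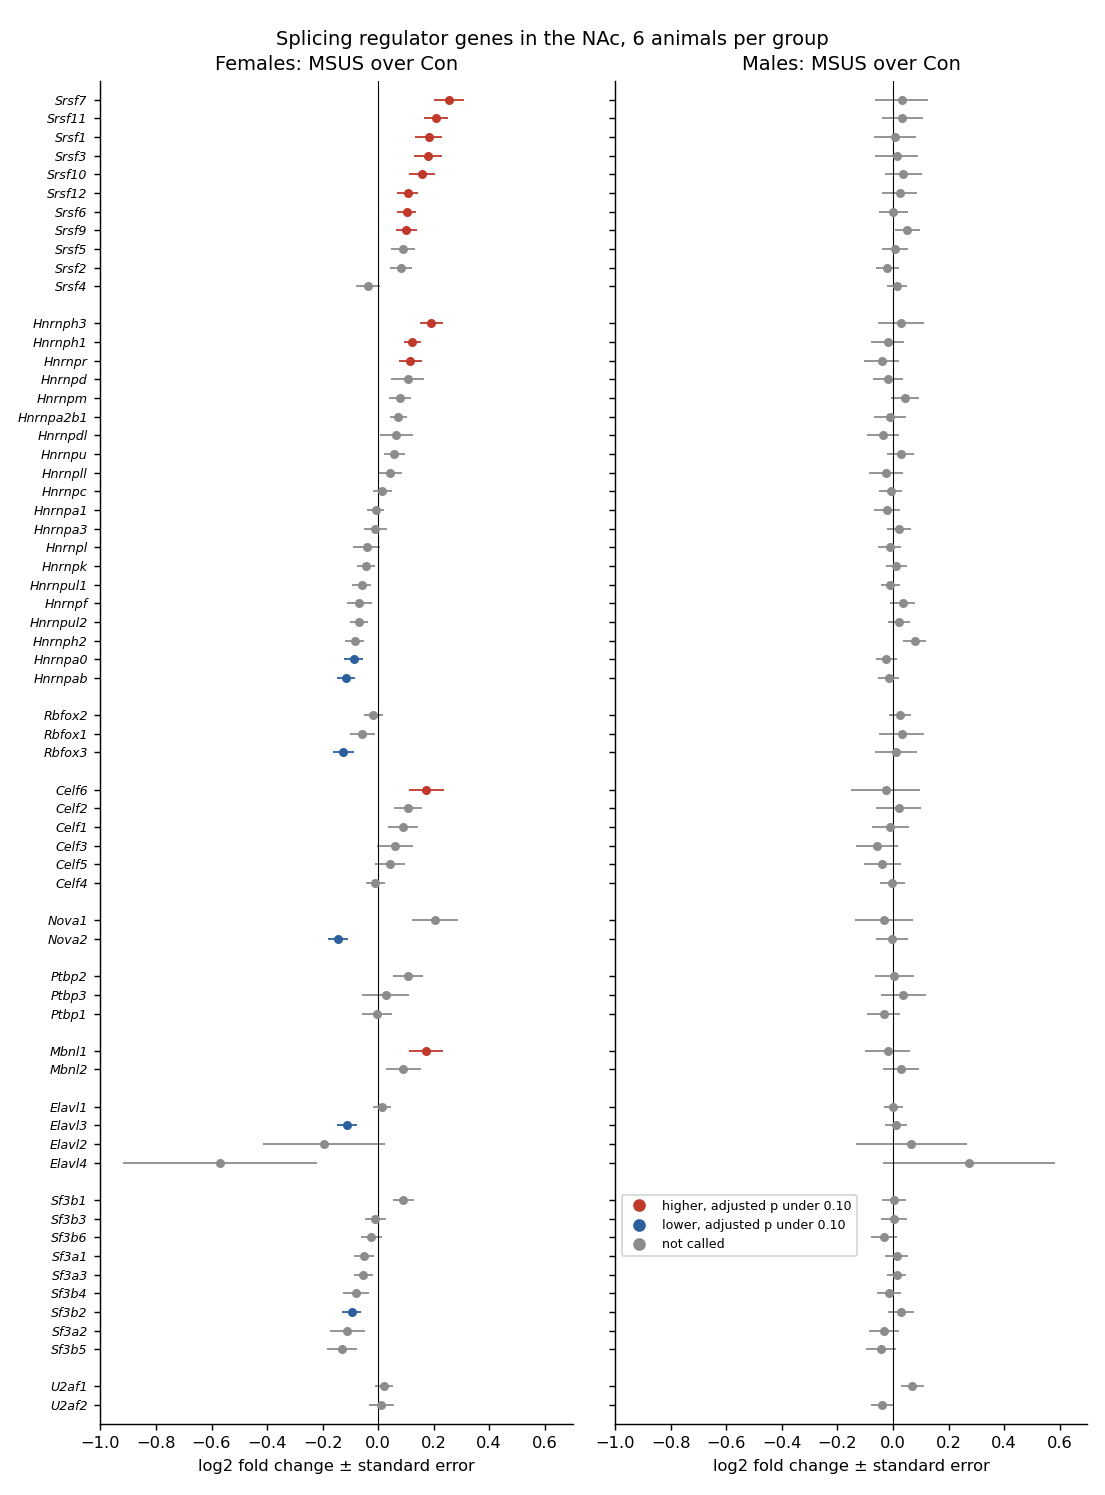
Log2 fold change of MSUS over Con for the 62 genes in females (left) and males (right), by family; points are edgeR estimates, bars are standard errors, and colour marks an adjusted p under 0.10. In females 13 genes were called higher and 6 lower, and in males none was called.

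The SR proteins were the family with the highest share of calls. Srsf11 (ENSMUSG00000055436.18; chr3:158010473-158036639, GRCm38, minus strand), an SR-related factor that binds near 3′ splice sites, had lowest, median and highest normalized counts of 5116, 5514 and 5767 in Con females and 5889, 6264 and 6765 in MSUS females. No Con female reached the lowest MSUS female, and the log2 fold change was 0.21 ± 0.044 (SE, adjusted p = 0.00997). Srsf7 (9G8), which also acts in mRNA export (chr17:80200080-80207307, minus strand), read 2939, 3222 and 3572 in Con females and 3637, 3778 and 4394 in MSUS females. These groups did not overlap either, and the log2 fold change of 0.26 ± 0.055 (SE, adjusted p = 0.0106) was the highest of the 62 genes. Srsf1 (SF2/ASF), the founding SR protein (chr11:88047373-88053755, plus strand), read 7109, 8376 and 8760 in Con females and 8873, 9331 and 9772 in MSUS females, again without overlap, with a log2 fold change of 0.18 ± 0.049 (SE, adjusted p = 0.0272). Srsf5, the most abundant family member by RPKM, was not called: it read 9701, 10323 and 11196 in Con females and 10169, 11315 and 11496 in MSUS females, the groups overlapped, and the log2 fold change was 0.090 ± 0.044 (SE, adjusted p = 0.171).

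Of the other SR genes, Srsf3 (0.18 ± 0.050), Srsf10 (0.16 ± 0.046), Srsf12 (0.11 ± 0.039), Srsf6 (0.10 ± 0.034) and Srsf9 (0.10 ± 0.038) were called higher, given as log2 fold change ± SE, and each had overlapping groups. Srsf10 differs from the rest in acting as a repressor unless phosphorylated. Srsf2 (SC35; 0.083 ± 0.039) and Srsf4 (-0.038 ± 0.043) did not pass. Srsf11, Srsf7, Srsf1, Srsf3 and Srsf10 were called with each female left out in turn. Srsf6 was called in 9 of 12 such fits (not without Con female 2, MSUS female 2 or MSUS female 5; log2 fold change 0.087 to 0.12), Srsf9 in 6 (not without Con female 2, 3 or 4 or MSUS female 3, 5 or 6; 0.082 to 0.12) and Srsf12 in 4 (only without Con female 4 or 6 or MSUS female 1 or 6; 0.093 to 0.12). With offsets for GC content and length, Srsf11 was the only SR gene called in edgeR, at 0.20 (adjusted p = 0.0153). Srsf7 was then at 0.14 (adjusted p = 0.108), Srsf3 at 0.079, Srsf9 at 0.074 and Srsf10 at 0.071. Srsf1 was at 0.063, Srsf12 at 0.054 and Srsf6 at 0.041, and none of these was called.

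The 20 hnRNP genes were split, with 3 called higher, 2 lower and 15 not called. Hnrnph3 (chr10:63014664-63024217, minus strand), a binder of G-rich sequences, read 2099, 2383 and 2451 in Con females and 2550, 2678 and 2838 in MSUS females. The groups did not overlap, with Con female 3 well below the rest, and the log2 fold change was 0.19 ± 0.042 (SE, adjusted p = 0.0117). Its paralog Hnrnph1 (chr11:50376990-50386528, plus strand) read 9612, 10042 and 10543 in Con females and 10543, 11001 and 11313 in MSUS females, with a log2 fold change of 0.12 ± 0.031 (SE, adjusted p = 0.0209). The highest Con and the lowest MSUS female differed here by less than 1 count. Its longest transcript had 37.1% GC, the lowest of the 13 higher genes. With offsets for GC content and length its log2 fold change turned to -0.16 (adjusted p = 0.0774). Hnrnpr, which acts in neurites as well as in splicing, had a log2 fold change of 0.12 ± 0.041 (SE, adjusted p = 0.0728) and was called in 5 of the 12 fits that left out a female, at 0.092 to 0.14 (not without Con female 2, 3 or 5 or MSUS female 2, 3, 5 or 6). The 15 hnRNP genes that were not called had log2 fold changes of -0.084 to 0.11.

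Hnrnpab (chr11:51600100-51606847, minus strand), a binder of AU-rich RNA in granules carried along dendrites, read 6210, 6571 and 6832 in Con females and 5875, 5994 and 6222 in MSUS females. The ranges touched only at the lowest Con and the highest MSUS female, and the log2 fold change was -0.12 ± 0.033 (SE, adjusted p = 0.0324). Hnrnpa0 was lower as well, at -0.088 ± 0.034 (SE, adjusted p = 0.0921), and was called in 4 of the 12 fits that left out a female (those without Con female 2 or 3 or MSUS female 1 or 5), at -0.10 to -0.071. Hnrnpa1, the classical hnRNP A1 and the most abundant by RPKM, read 8628, 9041 and 9395 in Con females and 8810, 8929 and 9164 in MSUS females. Those groups lay on top of each other, with a log2 fold change of -0.0081 ± 0.031 (SE, adjusted p = 0.878). The X-linked Hnrnph2, close in sequence to Hnrnph1, went the other way without passing, at -0.084 ± 0.034 (SE, adjusted p = 0.106). Within each library, the log2 ratio of Hnrnph1 to Hnrnph2 counts ran from 0.87 to 0.97 in Con females and from 1.03 to 1.18 in MSUS females. In males it ran from 0.88 to 1.17 (Con) and from 0.69 to 1.13 (MSUS). Pairs that fit both of these similar genes were not counted, so their levels are uncertain.

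Among the neuronal regulators, Nova2 (ENSMUSG00000030411.16; chr7:18925888-18965319, plus strand), a neuronal reader of YCAY motifs, read 12101, 12519 and 13067 in Con females and 10770, 11506 and 11811 in MSUS females. Every MSUS female was below every Con female, and the log2 fold change was -0.14 ± 0.035 (SE, adjusted p = 0.0182). With offsets for GC content and length, Nova2 was at -0.012 in edgeR (adjusted p = 0.844). Its paralog Nova1 read 2689, 3680 and 3936 in Con females and 3750, 3894 and 4270 in MSUS females, with a log2 fold change of 0.20 ± 0.082 (SE, adjusted p = 0.105) that did not pass. The log2 ratio of Nova1 to Nova2 counts, taken within each library, ran from -2.28 to -1.66 in Con females and from -1.63 to -1.33 in MSUS females. In males it ran from -1.82 to -1.125 (Con) and from -2.09 to -1.25 (MSUS). The same ratio was taken for Ptbp2 to Ptbp1, Rbfox1 to Rbfox3, Srsf7 to Srsf4 and Mbnl1 to Mbnl2. For each of those pairs the female groups overlapped.

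Rbfox3 (chr11:118489762-118911597, minus strand), whose protein is the neuronal marker NeuN, read 12168, 13020 and 13787 in Con females and 11449, 11924 and 12272 in MSUS females. The groups overlapped by a narrow margin and the log2 fold change was -0.12 ± 0.039 (SE, adjusted p = 0.0471). With offsets for GC content and length it was 0.021, and without MSUS female 2 it was not called, the fits that left out a female giving -0.14 to -0.11. Rbfox1, which is far more abundant by RPKM, read 17809, 18630 and 20792 in Con females and 16601, 18258 and 18848 in MSUS females and did not pass, at -0.057 ± 0.046 (SE, adjusted p = 0.405). Rbfox2 was at -0.018 ± 0.035 (SE, adjusted p = 0.760).

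In the Elavl family, Elavl3 (chr9:22015005-22052023, minus strand) read 10699, 11150 and 12108 in Con females and 10121, 10384 and 10640 in MSUS females. The MSUS females all lay below the Con females, and the log2 fold change was -0.11 ± 0.036 (SE, adjusted p = 0.0521). With offsets for GC content and length, Elavl3 was at -0.0055 in edgeR (adjusted p = 0.933). Without MSUS female 2, 3 or 5 it was not called; over all 12 fits that left out a female it ran from -0.13 to -0.089. Elavl4 had the largest fold change in size of the 62 genes, -0.57 ± 0.35 (SE, adjusted p = 0.277) and did not pass. Its groups overlapped from 1337 to 3126 normalized counts, and Con female 3, at 5364, stood above every MSUS female. Elavl2 was at -0.20 ± 0.22 (SE, adjusted p = 0.564) and Elavl1 at 0.014 ± 0.032 (SE, adjusted p = 0.794).

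Among Celf, Mbnl and Ptbp genes, Celf6 and Mbnl1 were called. Celf6 read 1234, 1327 and 1467 in Con females and 1273, 1537 and 1644 in MSUS females with a log2 fold change of 0.17 ± 0.063 (SE, adjusted p = 0.0760), and was called in 3 of the 12 fits that left out a female (those without Con female 4 or 6 or MSUS female 1), which gave 0.15 to 0.22. Mbnl1 (muscleblind-like 1), which controls the switch from fetal to adult exons, read 7305, 9176 and 9647 in Con females and 9554, 10003 and 10661 in MSUS females. Its groups overlapped only at their edges, and the log2 fold change was 0.17 ± 0.061 (SE, adjusted p = 0.0721). It was not called without Con female 3 or MSUS female 3, 5 or 6, the 12 such fits giving 0.12 to 0.20. Mbnl2, the more abundant of the pair by RPKM, was at 0.089 ± 0.063 (SE, adjusted p = 0.340), and Celf5, with Celf4 the most abundant of the Celf genes, at 0.043 ± 0.054 (SE, adjusted p = 0.612). Ptbp2 read 4823, 5179 and 5803 in Con females and 5164, 5602 and 6091 in MSUS females with a log2 fold change of 0.11 ± 0.055 (SE, adjusted p = 0.192) and Ptbp1 stood at -0.0046 ± 0.054 (SE, adjusted p = 0.962), so no Ptbp gene passed. The 5 Celf genes not called spanned -0.010 to 0.11.

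Of the 11 genes for the 3′ splice site and U2 components, 1 was called. Sf3b2, an SF3b subunit (chr19:5273932-5295455, minus strand), read 10449, 11020 and 11507 in Con females and 9918, 10223 and 10650 in MSUS females. It was the most abundant Sf3 gene by RPKM and the only 1 of 9 called, at a log2 fold change of -0.096 ± 0.032 (SE, adjusted p = 0.0607). With offsets for GC content and length it was 0.011. It was not called without Con female 2 or MSUS female 2, 3 or 5, the fits that left out a female giving -0.11 to -0.081. Sf3b1, the scaffold of the complex, was at 0.091 ± 0.038 (SE, adjusted p = 0.113) and Sf3b5 at -0.13 ± 0.053 (SE, adjusted p = 0.107), and the 8 Sf3 genes not called spanned -0.13 to 0.091. U2af1, which reads the AG of the 3′ splice site, read 1344, 1419 and 1476 in Con females and 1405, 1437 and 1472 in MSUS females, with a log2 fold change of 0.021 ± 0.032 (SE, adjusted p = 0.667). U2af2, which reads the polypyrimidine tract before it, read 5922, 6654 and 7154 in Con females and 6236, 6588 and 7170 in MSUS females, at 0.012 ± 0.045 (SE, adjusted p = 0.880).

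**Figure D3:**
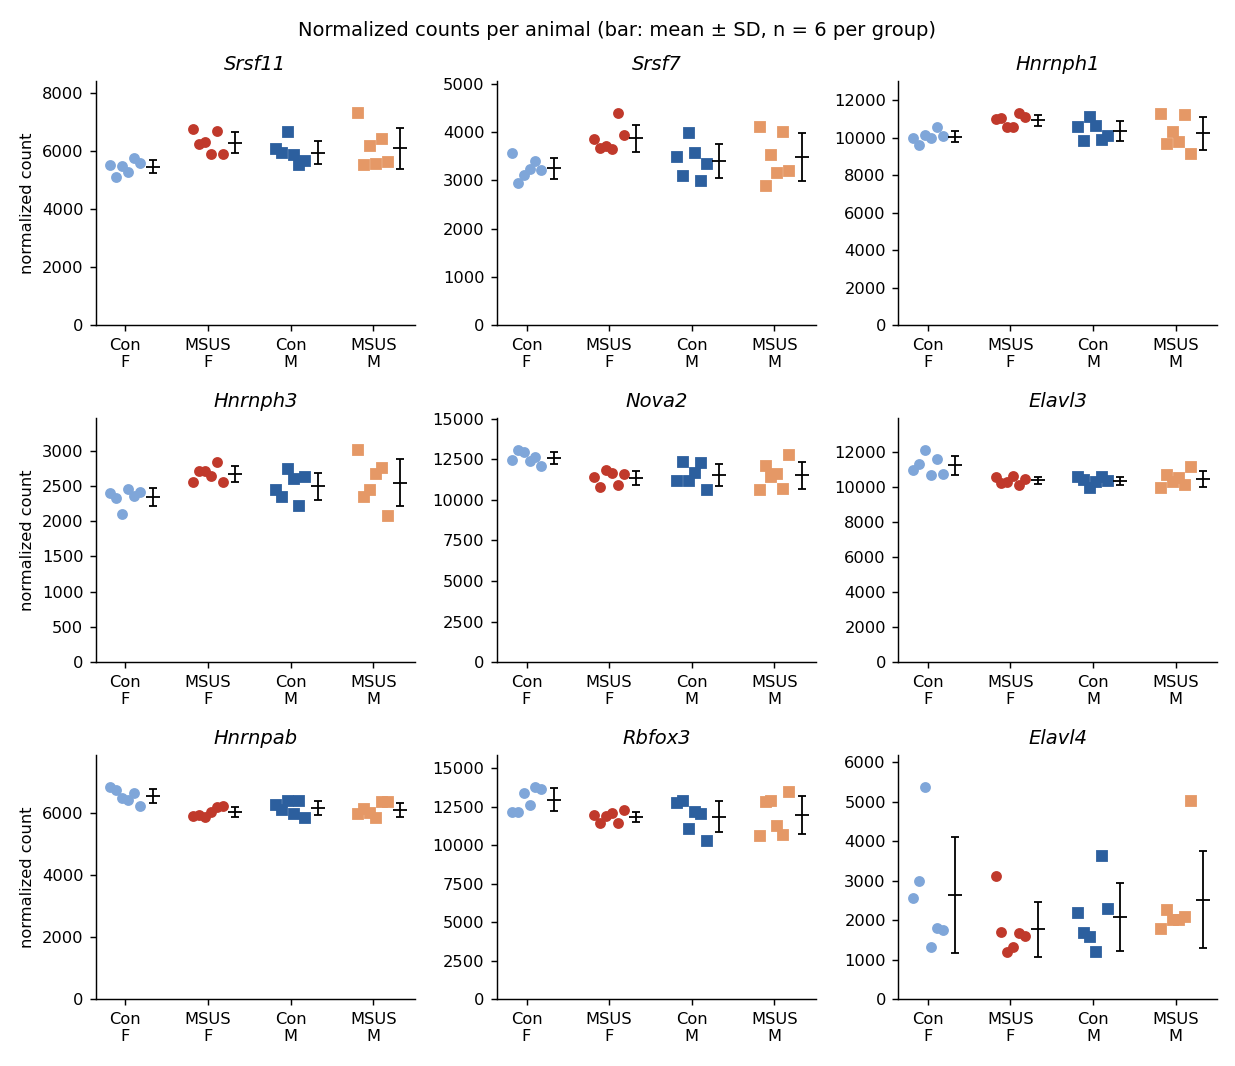
Normalized counts of 9 genes in each of the 24 animals by group (F, females; M, males); the bar beside each group is the mean ± SD (n = 6), and each axis starts at 0. MSUS females all lie above Con females for Srsf11, Srsf7, Hnrnph1 and Hnrnph3 and below them for Nova2 and Elavl3, while males overlap in all 9 panels.

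Because the no-exon share moved with the female groups, its slope was also fitted within the 12 males, with group as a term, since the share overlapped between Con and MSUS males. In males 22 of the 62 genes followed this share, against 31.5% of all genes tested: 18 rose (14.7% of all genes) and 4 fell (16.9% of all genes) with it. Srsf7 rose by 0.44 ± 0.079 (SE, adjusted p = 0.00321) log2 units per 10 percentage points of the share, Mbnl1 by 0.39 ± 0.063 (SE, adjusted p = 0.00191), Srsf11 by 0.33 ± 0.057 (SE, adjusted p = 0.00243) and Hnrnph3 by 0.36 ± 0.078 (SE, adjusted p = 0.00723). Nova2 fell with the share, at -0.20 ± 0.061 (SE, adjusted p = 0.0318), as did Sf3b2, at -0.16 ± 0.051 (SE, adjusted p = 0.0409). Elavl4 and Elavl2 fell most steeply of the 62 genes, at -1.02 ± 0.35 (SE, adjusted p = 0.0634) and -0.66 ± 0.24 (SE, adjusted p = 0.0755). Without MSUS male 6, the Elavl4 slope was -0.61 (adjusted p = 0.313). That male had the lowest share of the 12 males (32.2%) and the highest cortical marker score, described below, of the 24 animals (6.06). The share and the score were not fitted together. All 13 genes that were higher in MSUS females had a slope above 0 in males and 10 of them were called, while of the 6 lower genes, 5 had a slope below 0 and 2 were called. Of all 20691 genes tested, 10407 had a slope above 0. The matching count over all genes called in females was not made, so this pattern cannot be read as particular to the 62 genes. The count of 22 fell to 15 without MSUS male 1, the male with the highest share (18.7% of all genes in that fit). The medians of the share in females, 32.7% and 39.6%, differ by less than 10 points. Of a list of 8 long RNAs kept in the nucleus, 6 were called higher in MSUS females, against 13.1% of all genes tested. Among them were Meg3 at 0.47 ± 0.071 (SE, adjusted p = 0.00304) and Malat1 at 0.23 ± 0.060 (SE, adjusted p = 0.0214). The rest of the list lay below 0 without being called, the lowest at a log2 fold change of -0.31. The summed level of the 8 was 16510 to 19300 CPM in Con and 20470 to 22990 CPM in MSUS females. Whether this list and the no-exon share are linked was not tested.

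With the same share as a covariate in females, all 19 called genes kept their sign. The estimate became larger for 11 of them and smaller for 8, and the standard errors grew. Srsf7, for example, was at 0.40 ± 0.11 and Hnrnpab at -0.040 ± 0.066, with adjusted p of 0.760 and 0.880. Among the 6 Con females, whose share spanned only 31.0% to 34.8%, Con females 1 and 5 had the lowest share (both 31.0%). They also had the highest Srsf7 of that group, at 3572 and 3407 normalized counts. Nova2 of that group was lowest in Con female 6 (share 34.8%), at 12101, and highest in Con female 2 (share 34.0%), at 13067 normalized counts. Srsf7 and Nova2 were picked for this after their values were seen, and a slope within a female group was not tested.

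The level of cortical excitatory genes, a mean of log2 CPM over 10 markers such as Slc17a7, also differed between punches, and spanned 1.12 to 5.02 in MSUS and 3.44 to 5.97 in Con females. Over all 24 animals, with group, sex and their interaction as terms, 16 of the 62 genes followed this score, against 33.1% of all genes tested. Elavl4 rose most, by 0.35 ± 0.064 (SE, adjusted p = 0.000390) log2 units per unit of the score, then Elavl2 by 0.22 ± 0.044 (SE, adjusted p = 0.000682), whereas Celf6 fell by 0.11 ± 0.022 (SE, adjusted p = 0.00104) and Nova1 by 0.092 ± 0.024 (SE, adjusted p = 0.00562). Con female 3 and MSUS male 6, with the highest Elavl4, also had the highest scores of their groups. The count of 16 fell to 9 without MSUS male 6 or without Con male 5, when 24% and 27.2% of all genes were called. With the score as a covariate in females, Srsf11, Srsf7, Srsf3 and Sf3b5 were called, 4 of the 62 genes, against 8.38% of all genes tested.

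**Figure D4:**
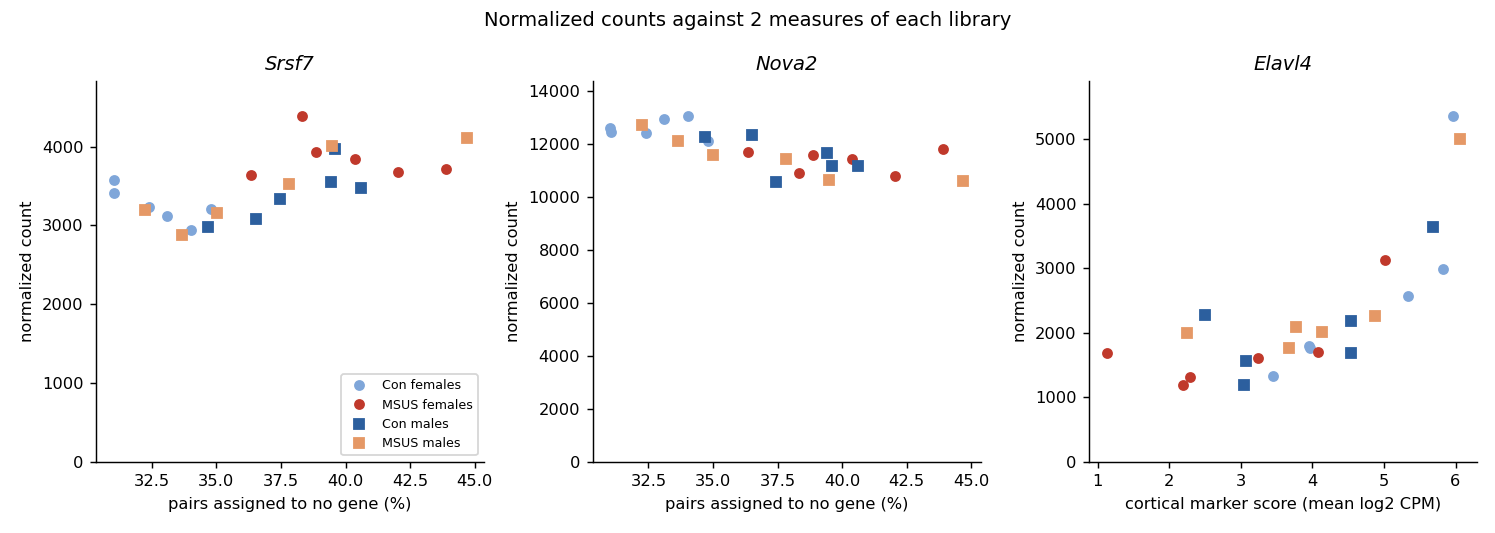
Normalized counts per animal of Srsf7 and Nova2 against the no-exon share (axis: pairs assigned to no gene, % of uniquely mapped pairs), and of Elavl4 against the cortical marker score (mean log2 CPM of 10 genes); circles are females and squares males. Among the males Srsf7 rises and Nova2 falls along the axis, on which all 6 MSUS females lie at 36.3% or more and all 6 Con females at 34.8% or less, and Elavl4 exceeds 5000 in the 2 animals with the highest scores.

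Transcript GC content, which the choice of genes did not use, was lower at the median in the genes that rose than in those that fell. GC content was taken from the longest annotated transcript of each gene. The 13 higher genes had 37.1% to 58.3% GC (median 41.6%) and the 6 lower ones 49.9% to 58.6% (median 54.8%). Across the 62 genes the female log2 fold change had a Spearman correlation of -0.44 with GC content (Pearson -0.27), and across 14943 protein-coding genes tested it had -0.33 (Pearson -0.23). These points share the same 12 libraries, and genes are not independent replicates. Gene length had a Spearman correlation of -0.00083 over the 62 genes. With offsets that remove a trend on GC content and length within each library, 12 of the 62 genes were called, against 16.5% of all genes tested, 5 of them among the 19, and 15 of the 19 kept their sign. Ptbp2, whose longest transcript had the lowest GC content of the 62 genes at 34.2%, was called with the offsets, at a log2 fold change of -0.34 (adjusted p = 0.00453). Srsf5 stood at -0.067 and Hnrnpr at -0.0041.

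**Figure D5:**
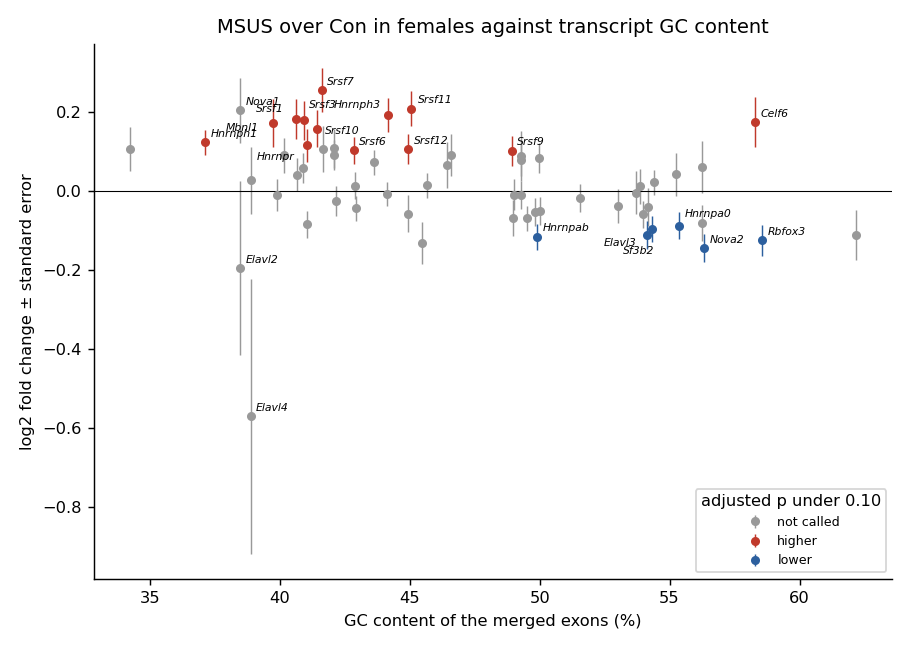
Female log2 fold change (MSUS over Con, bars are standard errors) against transcript GC content in % for the 62 genes, coloured by call. The GC content is that of the longest transcript, although the axis label names merged exons. The called higher genes sit mostly below 46% GC, with Srsf9 and Celf6 as exceptions, and the 6 called lower genes at 49.9% or more.

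The comparison of MSUS with Con males asked the same of the male NAc. None of the 62 genes was called, against 0.0% of all 20691 genes tested, and 0 had an unadjusted p under 0.05 in edgeR; DESeq2 also called 0. Log2 fold changes ran from -0.057 (Celf3) to 0.27 (Elavl4), with a median size of 0.023, against 0.086 in females. The smallest p belonged to Hnrnph2, which read 4678, 5012 and 5352 in Con males and 4975, 5270 and 5668 in MSUS males, with a log2 fold change of 0.078 ± 0.042 (SE, unadjusted p = 0.0887, adjusted p = 1.00). U2af1 followed at 0.069 ± 0.041 (SE, unadjusted p = 0.112, adjusted p = 1.00) and Srsf9 at 0.052 ± 0.044 (SE, unadjusted p = 0.262, adjusted p = 1.00). Srsf7 read 2975, 3405 and 3970 in Con males and 2877, 3355 and 4107 in MSUS males, and Srsf11 read 5522, 5901 and 6646 in Con males and 5524, 5896 and 7313 in MSUS males. For both, the highest animal was an MSUS male and the groups overlapped. Nova2, at 10577, 11428 and 12338 in Con males and 10606, 11502 and 12730 in MSUS males, overlapped as well.

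Whether the effect of MSUS differed between the sexes was tested as a group-by-sex interaction over 24 animals. No gene of the 62 passed in edgeR, against 0.0% of all 21500 genes tested, while 7 had an unadjusted p under 0.05 and DESeq2 called 1, Hnrnph2, against 2.22% of all genes in DESeq2. The interaction (female minus male log2 fold change) was -0.17 ± 0.053 (SE, unadjusted p = 0.00452, adjusted p = 0.200) for Hnrnph2, -0.13 ± 0.049 (SE, unadjusted p = 0.0158, adjusted p = 0.213) for Elavl3 and -0.13 ± 0.052 (SE, unadjusted p = 0.0199, adjusted p = 0.221) for Sf3b2. Without MSUS male 1, 7 of the 62 genes were called, against 14.0% of all genes tested: Hnrnph2 (-0.17), Elavl3 (-0.14) and Sf3b2 (-0.15) below 0, and Srsf11 (0.23), Srsf1 (0.23), Hnrnph1 (0.17) and Hnrnpr (0.21) above 0, each as an interaction on the log2 scale. With the no-exon share as a covariate, 0 of the 62 genes had an unadjusted p under 0.05.

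Females and males were compared within Con and within MSUS, and these share animals with the comparisons above, so values are given side by side. In Con, 0 of the 62 genes were called by edgeR, against 2.64% of all 20641 genes tested, with 10 at an unadjusted p under 0.05 and 3 called by DESeq2 (Elavl3, Nova2 and Sf3b2), against 7.04% of all genes in DESeq2. The smallest p was for Elavl3, at 10699, 11150 and 12108 in Con females and 9956, 10384 and 10579 in Con males, where the groups did not overlap, with a log2 difference of females over males of 0.12 ± 0.039 (SE, unadjusted p = 0.00691, adjusted p = 0.130). Nova2 was at 0.13 ± 0.045 (SE, unadjusted p = 0.0112, adjusted p = 0.152) and Hnrnpf at 0.13 ± 0.048 (SE, unadjusted p = 0.0171, adjusted p = 0.181). Srsf11 was at -0.12 ± 0.048 (SE, unadjusted p = 0.0297, adjusted p = 0.227) and was called without Con male 5, at -0.16 (adjusted p = 0.0967), the 1 member called in that fit, against 6.7% of all genes. The no-exon share was also lower in Con females (31.0% to 34.8%) than in Con males (34.7% to 40.6%). With this share as a covariate, 0 of the 62 genes were called and 0 had an unadjusted p under 0.05 in edgeR, while 11 of all 20641 genes tested were called.

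In MSUS, 0 of the 62 genes were called by edgeR or DESeq2, against 0.135% of all 20714 genes tested, and 2 had an unadjusted p under 0.05. Those were Srsf2, at 4992, 5162 and 5316 in MSUS females and 4528, 4680 and 5096 in MSUS males and a log2 difference of females over males of 0.12 ± 0.038 (SE, unadjusted p = 0.00887, adjusted p = 0.530), and Hnrnph2, at -0.095 ± 0.042 (SE, unadjusted p = 0.0406, adjusted p = 0.667). U2af2 came next at 0.078 ± 0.039 (SE, unadjusted p = 0.0671, adjusted p = 0.667). MSUS females and males overlapped in Srsf2 and Hnrnph2, as they did in Elavl3, at 10121, 10384 and 10640 in MSUS females and 9931, 10400 and 11158 in MSUS males.

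Other splicing genes, from lists of the pathway, were read in the same female comparison. SR-related proteins and SR kinases had 10 of 33 tested genes higher and 2 lower (median log2 fold change 0.036). Tra2a, which partners with SR proteins on exonic enhancers, read 3914, 4088 and 4499 in Con females and 4720, 5198 and 5367 in MSUS females, without overlap, at 0.31 ± 0.043 (SE, adjusted p = 0.00241), and Pnisr, an SR-related protein, was at 0.22 ± 0.037 (SE, adjusted p = 0.00362). The kinases Clk1 and Clk4, which phosphorylate SR proteins, were at 0.20 ± 0.053 (SE, adjusted p = 0.0229) and 0.20 ± 0.044 (SE, adjusted p = 0.0114). Of other RNA-binding regulators, 13 of 42 were higher and 2 lower (median 0.079), led by Tia1, a binder of U-rich sequence after 5′ splice sites, at 0.32 ± 0.040 (SE, adjusted p = 0.00135), and Sfpq at 0.23 ± 0.037 (SE, adjusted p = 0.00362).

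The core spliceosome was covered by the remaining lists. Proteins of the U1 and U2 particles and the Sm ring had 3 of 25 genes higher and 4 lower (median -0.029): the U1-associated Luc7l2 and Luc7l3 were at 0.24 ± 0.054 (SE, adjusted p = 0.0125) and 0.15 ± 0.039 (SE, adjusted p = 0.0197), and the Sm protein gene Snrpb at -0.17 ± 0.044 (SE, adjusted p = 0.0235). Tri-snRNP and catalytic factors had 0 of 35 higher and 6 lower (median -0.053), led by Cdc5l at -0.099 ± 0.031 (SE, adjusted p = 0.0482) and Lsm4 at -0.13 ± 0.047 (SE, adjusted p = 0.0709). In males none of the genes of the 4 lists was called. Of all genes tested, 13.1% were called higher and 11.9% lower in females.

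Markers of cell types were read in the female comparison as well, where 25.1% of all genes tested were called and 11.9% were called lower. The lists are short and were not tested against these shares. Of the lists, 3 of 10 cortical excitatory, 2 of 6 interneuron (Sst and Pvalb), 4 of 6 oligodendrocyte and 1 of 5 astrocyte genes were called lower and none higher, while 0 of 10 striatal projection neuron, 0 of 3 oligodendrocyte precursor, 0 of 5 microglia and 0 of 4 endothelial genes were called. The summed oligodendrocyte level was 3752 to 5656 CPM in Con and 3394 to 4207 CPM in MSUS females, and the summed cortical excitatory level was 325 to 1923 and 162 to 893 CPM. No marker was at 0 in any group. The part of these cells in the results for the 62 genes was not tested, apart from the cortical score above.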

How the data were processed

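Paired reads of 24 libraries, 1 per animal, were aligned by the authors with STAR to the mouse genome mm10 with a GENCODE annotation; the submitters' processing notes name STAR 2.6.1b and CASAVA 1.8. The deposited values are whole-number counts per gene, not normalized, of read pairs that mapped to 1 place, and the counts of the sense strand were used here. Groups came from the labels. Estrous stage, which the labels give for 6 males and leave out for 6 females, was not used.

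Each comparison was fitted over all genes with edgeR 4.0.16 in R 4.3.3 (filterByExpr with a minimum count of 10, TMM scaling, robust quasi-likelihood F test, Benjamini-Hochberg adjustment, threshold 0.10), on the 12 animals of that comparison or, for the interaction, on all 24. The scripts were tested on simulated data. DESeq2 1.42.0, other scalings, filters, covariates and animals left out in turn were alternatives. Normalized counts are counts divided by DESeq2 median-ratio size factors taken over the 24 libraries. CPM and RPKM use the TMM-scaled library size. Gene models, exonic lengths (merged exons) and GC content (longest transcript) were those of GENCODE M21 on GRCm38 (52636 identifiers: 49121 matched exactly, 3368 without version, 147 not at all). Python 3.11.15, pandas 2.3.3 and matplotlib 3.10.9 were used for summaries and figures.

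The genes and lists were chosen with earlier results of these data known. The rule named the gene with the smallest p in females and the gene with the highest RPKM in each family, and the next 2 by p in Srsf and Hnrnp. It also named the first 3 by p in every further comparison and the first 2 by p in each other splicing list. Values per group are given for part of these genes, and only a log2 fold change or difference for the others. Elavl4, Elavl2, Nova1, Hnrnpa0, Hnrnpr, Celf6, Srsf3, Srsf6, Srsf9, Srsf10, Srsf12, Mbnl2, Meg3, Malat1, Snrpb, Clk1, Clk4 and other genes named beside these were chosen after their values were seen, as were both slope fits. Of 60 pairs of libraries within groups, none agreed within sampling noise (lowest chi-square per gene 6.34). The splice event rate of each library, from a table of the study, served only as a covariate. Where a gene overlaps another on the opposite strand, antisense pairs reached 10.5% for Sf3a2, 6.04% for Srsf4 and 5.28% for Hnrnph3 of the pairs on both strands. With 6 animals a group, changes smaller than the spread between animals were not detectable.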

Additional observations from a re-analysis of the deposited data

Results flagged for a closer look

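In 96 groups of 6 animals (24 named genes in 4 groups), the gap between an extreme animal and its nearest neighbour was tested with Dixon's criterion, which chance passes in about 1 of 20 groups; 2 of the 96 passed. Hnrnph2 had 5375 normalized counts in MSUS female 1, above the 4803 to 5003 of the other MSUS females. Hnrnph3 had 2099 normalized counts in Con female 3, below the 2335 to 2451 of the other Con females; it was called without that animal as well.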

How the results depend on the processing

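In females, 19 of the 62 genes were called; this count was 12 with no filter on low counts, 12 with offsets for GC content and length, 4 with the cortical score and 0 with the no-exon share or with the spliced share as a covariate, 10 at an adjusted p under 0.05, and 11 to 21 with each animal left out. Unstranded counts gave 17 calls, 7 higher and 10 lower, in place of 13 and 6. In Con, the count of sex differences was 3 with DESeq2 (7.04% of all genes) and 3 with counts without regard to strand (5.78%). With each animal left out it was 0 to 1 (0.0962% to 6.7% of all genes). For the interaction the count was 1 with DESeq2 (2.22% of all genes) and 0 to 7 with each animal left out (0% to 14.0%). Changes of sign in females were listed only for Hnrnpr and for the genes named by smallest p or highest RPKM in each family, not for all 62. With the offsets, these log2 fold changes turned to Hnrnph1 -0.16, Ptbp2 -0.34, Rbfox3 0.021, Sf3b2 0.011, Srsf5 -0.067 and Hnrnpr -0.0041. The cortical score turned Celf5 to -0.023, Mbnl2 to -0.029 and U2af2 to -0.046. The no-exon share turned Hnrnpa1 to 0.033 and Rbfox1 to 0.0021, and the spliced share turned Hnrnpa1 to 0.034 and Ptbp2 to -0.075. Unstranded counts turned U2af1 to -0.0087 and U2af2 to -0.017. Leaving out an animal changed the sign of Hnrnpa1, which ran from -0.021 to 0.0053 (above 0 without Con female 1 or MSUS female 4). It also did so for U2af2, which ran from -0.018 (without Con female 3) to 0.030. The cause was not tested. DESeq2 size factors gave the same 19 calls. A minimum of 10 counts in every animal added Nova1, Sf3b1 and Hnrnpa2b1 and lost none (22 calls), and a library set term added Hnrnph2 and Sf3b5 and lost none (21 calls). DESeq2 (23 calls) added Hnrnph2, Sf3b1, Sf3b5, Hnrnpa2b1 and Hnrnpul2 and lost Srsf9. Of all genes tested, 24.85% were called with DESeq2 size factors and 26.6% with 10 counts in every animal. The library set term gave 25.1% and DESeq2 25.8%.

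Replicate numbers did not pair the animals: same-numbered females correlated at -0.25 to 0.26, and 2 of 12 libraries correlated best with their own number. With the replicate block, 11 of the 62 genes were called in females, against 18.5% of all genes tested. With the block and the offsets 8 were called, against 9.59% of all genes. In that fit Hnrnph1 was -0.16, Ptbp2 -0.34, Rbfox3 0.024, Sf3b2 0.011 and Srsf5 -0.067. The all-animal fit could not serve as an alternative for the interaction, which already uses all 24.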
